A study of Mus musculus with 4 samples.

Results

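Heat shock proteins of the cytosol and the mitochondrion, with the transcription factor Hsf1, were followed at every array probe that carries 1 of 10 gene names (Hspa1a, Hspa1b, Hspa8, Hspa9, Hsph1, Dnajb1, Hspb1, Hspd1, Hspe1 and Hsf1). Of 34821 gene names on the array, 9 are members, with 14 of its 55681 distinct probes, and no probe carries the name Hspa1b. The family was chosen by the signal of Hspa1a, which lay among the most depleted mRNAs of this comparison, so the Hspa1a difference is given as a description with no test. The tested precipitate was brought down with CPEB3 IgG, an antibody against cytoplasmic polyadenylation element binding protein 3, and the other with control IgG, with 2 arrays each. Both came from lysate of cortex and hippocampus of male C57BL/6 mice aged 8 weeks, kept with antibody-coated beads for 3 h. Neither the number of animals nor whether replicates are separate lysates is given in the labels, so the spread between replicates may be technical. No array of the input lysate was analysed here, so a difference cannot be set against the abundance of the RNA in the lysate. The lysate mixes all cell types of the tissue, so the values do not show which cells an RNA in a precipitate came from. Signals are intensities of 1-colour Agilent arrays. Levels are log2 signals after subtraction of each array's 75th percentile, and differences are the CPEB3 IgG level less the control IgG level. They compare the makeup of the 2 precipitates, not amounts of RNA.

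Heat shock proteins are chaperones that bind unfolded or aggregating proteins. HSP70 proteins work in cycles of ATP hydrolysis that J-domain proteins (HSP40) start and exchange factors such as HSP110 end, small heat shock proteins hold unfolded proteins until HSP70 takes them over, and in the mitochondrial matrix HSP60 and its lid HSP10 form a folding chamber. HSF1 switches on the inducible genes of the family under stress, whereas neurons hold a large standing pool of the constitutive HSP70, Hspa8, which also strips clathrin from endocytic vesicles. CPEB3 is an RNA-binding protein that regulates translation in neurons, and proteins of its family are known for binding uridine-rich elements in 3′ ends of mRNAs.

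What each probe can see follows from its sequence. Shown here are Hspa1a, the probes that passed the test given below, and Hspb1, which did not pass. The Hspe1 probe at 632 passed but is left out, as it overlaps that at 629. Sequences run 5′ to 3′ in the sense of the mRNA, as the array files give them, with mm9 coordinates per the file headers. Capitals in the Hspa1a probe (chr17:35107117-35107176, minus strand) and in the middle Hspa8 probe mark the 9 bases that are their longest shared stretch. Capitals in the lines of Hspa8 at 2044, Hspe1 at 629, Hspb1 and Hsf1 mark only the motif chosen for that line. It is the polyadenylation signal AATAAA, the cytoplasmic polyadenylation element TTTTAT, or a run TTTTT. The Hspe1 629 and Hspb1 lines also hold AATAAA, left in lower case. The remaining lines mark no motif. The number after each name is the position on the transcript, and the motif lines show 30 of the 60 bases.
Hspa1a 1925: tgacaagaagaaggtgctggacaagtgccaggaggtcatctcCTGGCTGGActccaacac
Hspa8 730: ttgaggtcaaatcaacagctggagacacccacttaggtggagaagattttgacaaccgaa
Hspa8 1812: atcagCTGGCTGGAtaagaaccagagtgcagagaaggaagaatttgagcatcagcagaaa
Hspa8 2044: gtaacatggaatAATAAAactatttaaatt
Hsph1 2728: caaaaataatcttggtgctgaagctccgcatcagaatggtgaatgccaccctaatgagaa
Hspe1 493: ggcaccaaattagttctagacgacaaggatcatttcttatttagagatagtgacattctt
Hspe1 629: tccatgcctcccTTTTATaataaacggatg
Hspb1 835: atttacctgctgTTTTTctcaaataaaagt
Hsf1 1935: ttgtattttggaTTTTTacatgagagtccc

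The family did not move as 1 block. All 3 probes of the constitutive HSP70 Hspa8 were lower with CPEB3 IgG, as was Hspa1a. All 3 probes of the mitochondrial co-chaperonin Hspe1 were higher. Hsf1 and 1 of the 2 Hsph1 probes were lower by less, and Hspa9, Dnajb1, Hspb1 and Hspd1 did not pass the test. All 14 probes were well above background on all 4 arrays. Of the 13 probes outside Hspa1a, 5 were called lower, 3 higher and 5 not called (limma, adjusted p under 0.05 over 40632 probes). Among all probes tested, 18.9% were called lower and 15.8% higher. With each array left out in turn, 3 of the 13 were called lower, all of them Hspa8, and 0 higher in limma. Each of these fits leaves 1 array in a group, so the sizes of the differences are given. Those of the Hspa8 probes lay between −3.63 and −2.46. Those of the Hspe1 probes at 493 and 629 lay between 0.67 and 1.04. The median difference of the 13 probes was 0.06, and that of all probes tested was −0.19. The 2 groups of levels did not overlap at 5 of the 13 probes in the lower direction and at 6 in the higher, against 42.7% and 28.6% of all probes.

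**Figure D1:**
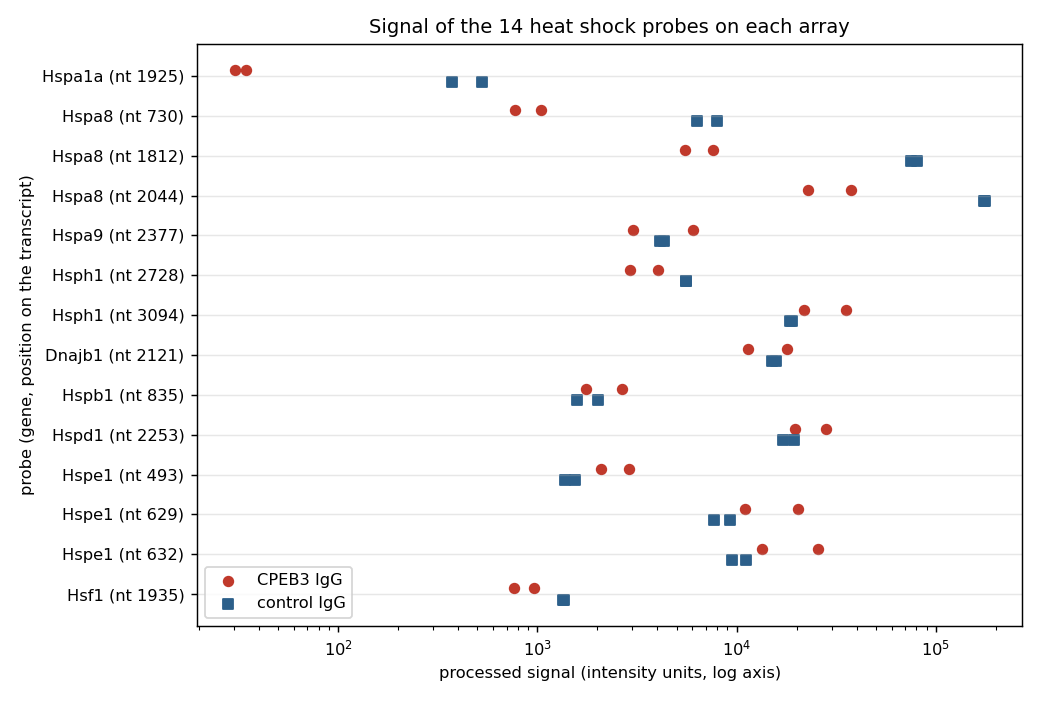
Processed signal (intensity units, log axis) of the 14 heat shock probes, 1 row per probe, with 1 point per array (circles CPEB3 IgG, squares control IgG). The circles of Hspa1a and of the 3 Hspa8 probes lie far left of the squares, as with 30.1 and 34.3 units against 374 and 526 units for Hspa1a, while those of Hspe1 lie to the right.

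Hspa1a encodes the stress-inducible cytosolic HSP70. Its single probe gave 30.1 and 34.3 units with CPEB3 IgG, against 374 and 526 units with control IgG. Both CPEB3 IgG arrays lay far below both control IgG arrays. The mean level was −3.72 ± 0.50 with CPEB3 IgG and 0.03 ± 0.39 with control IgG (SD, n = 2 each), a difference of −3.75 ± 0.34 (SE), or 13.5-fold lower. Counted from the most depleted, this probe stood at place 63 of the 40632 tested. The difference was −2.33 with normexp background correction and −3.10 with spike-in scaling. The normexp setting adds an offset of 50 units, more than the processed signals of this probe with CPEB3 IgG, which narrows differences of dim probes. The files list the RefSeq transcripts of both Hspa1a and its neighbour Hspa1b for this probe, so the value stands for the sum of these near-identical genes and cannot be split between them.

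Hspa8, the constitutive HSC70, was lower with CPEB3 IgG at every probe. At position 2044 (chr9:40613223-40613282, plus strand), the probe that holds the polyadenylation signal printed above, the signals were 37392 and 22730 units with CPEB3 IgG, against 174869 and 176550 units with control IgG. The difference there was −2.56 ± 0.17 (SE), a 5.88-fold lower value (95% interval 4.29 to 8.05, limma adjusted p = 0.00527). No array of 1 group came near the other. The probe at position 1812 gave 7637 and 5483 units with CPEB3 IgG, against 74911 and 80252 units with control IgG, and was 11.7-fold lower (−3.55 ± 0.16, limma adjusted p = 0.00527). Its coordinates (chr9:40612755-40613050) span 296 bases for 60 bases of probe, so its sequence lies in separate pieces of the genome. At position 730 (chr9:40611142-40611201) the signals were 1043 and 774 units with CPEB3 IgG, against 6352 and 8007 units with control IgG. That probe was 7.74-fold lower (−2.95 ± 0.21, limma adjusted p = 0.00527). The 3 probes cover 1314 nt of the transcript, and at each the groups stayed apart. The call of each Hspa8 probe held in every setting in which the probe was fitted, with differences between −3.63 and −1.90 over the 3 probes.

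Hsph1 encodes an HSP110 protein, an exchange factor that releases ADP from HSP70. Its probe at position 2728 (chr5:150420110-150420169, minus strand) gave 4011 and 2925 units with CPEB3 IgG, against 5570 and 5594 units with control IgG. The difference was −0.67 ± 0.16 (SE, limma adjusted p = 0.0360), and the levels did not overlap. The probe at position 3094, 366 nt nearer the 3′ end, gave 35620 and 21821 units with CPEB3 IgG, against 19009 and 18443 units with control IgG. There the difference was 0.61 (95% interval 0.17 to 1.05), with a limma adjusted p = 0.0513 that just missed the threshold. The values of the 2 probes lie on opposite sides of 0, 1.28 apart on the log2 scale, a contrast that was not tested. Leaving out any single array ended the lower call at position 2728 (−0.70 to −0.64), as did median scaling (−0.38) and spike-in scaling (−0.01). The probe at 3094 was called higher with normexp (0.57), quantile scaling (0.82), median scaling (0.90), the filter on all 4 arrays, an intensity trend and 1 probe per gene (0.61 in these last), and in no fit that left out an array.

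**Figure D2:**
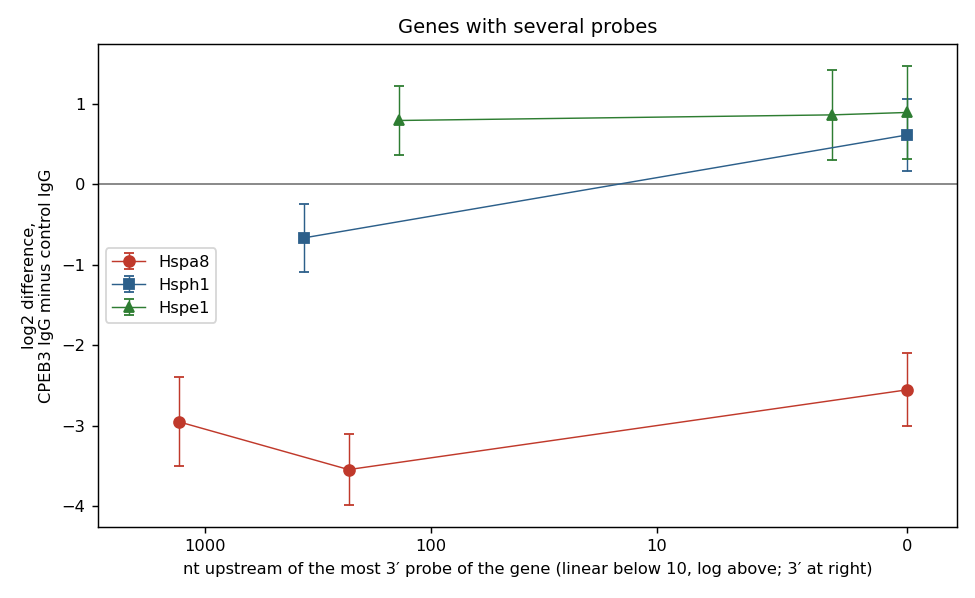
Log2 difference, CPEB3 IgG minus control IgG, with its 95% interval, against the distance of a probe from the most 3′ probe of its gene (nt, log axis above 10), for the 3 genes with several probes. Hspa8 lies between −3.55 and −2.56 and Hspe1 between 0.79 and 0.89 at every probe, while the Hsph1 probes lie at −0.67 and 0.61.

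Dnajb1, the main stress-inducible J-domain partner of cytosolic HSP70, gave 17965 and 11354 units with CPEB3 IgG, against 15110 and 15854 units with control IgG (chr8:86135660-86135719). The groups overlapped, and the difference was −0.08 (95% interval −0.53 to 0.37, limma adjusted p = 0.736). Its sign turned with quantile (0.026), median (0.21) and spike-in scaling (0.57). Hspb1 encodes the small heat shock protein HSP27 (chr5:136365366-136365425). It gave 2672 and 1753 units with CPEB3 IgG, against 2019 and 1571 units with control IgG. Once scaled, both CPEB3 IgG levels (2.40 and 2.31) lay above both control IgG levels (2.19 and 1.89). The difference of 0.32 (95% interval −0.18 to 0.82) did not pass (limma adjusted p = 0.251).

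Of the mitochondrial chaperones, Hspe1 (HSP10) was higher with CPEB3 IgG at each of its 3 probes. The most 3′ probe, at position 632 (chr1:55148026-55148085, plus strand), gave 25554 and 13369 units with CPEB3 IgG, against 11087 and 9441 units with control IgG. It was 1.85-fold higher (0.89 ± 0.22 on the log2 scale, SE, limma adjusted p = 0.0392). Both CPEB3 IgG arrays lay above both control IgG arrays, although the CPEB3 IgG levels were 5.66 and 5.24. The probe at position 629 starts 3 nt upstream and shares 57 positions with it, identical except for the base C15T, counted from 1 at the 5′ end of the probe at 629. It gave 20420 and 11004 units with CPEB3 IgG, against 9277 and 7737 units with control IgG (0.86 ± 0.21, limma adjusted p = 0.0397). These 2 probes share most of their sequence and are not separate evidence. The third, at position 493, spans 327 bases of the genome (chr1:55147620-55147946) and lies 136 nt upstream of the probe at 629. It gave 2886 and 2095 units with CPEB3 IgG, against 1545 and 1377 units with control IgG (0.79 ± 0.16, limma adjusted p = 0.0248). The files, which give at most 4 accessions per probe, list 2 predicted transcripts for it beside that of Hspe1. All 3 calls were lost when any single array was left out, when levels were not scaled and when dim probes were kept, though the differences stayed between 0.64 and 1.54 in every setting.

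Hspd1 encodes HSP60, the barrel that HSP10 closes, and is transcribed away from Hspe1 on the opposite strand of chromosome 1. Its probe (chr1:55134697-55134756, minus strand) gave 28116 and 19665 units with CPEB3 IgG, against 19481 and 17079 units with control IgG. Beside that of Hspd1, 2 predicted transcripts are listed for this probe. The levels were 5.80 ± 0.003 with CPEB3 IgG and 5.39 ± 0.09 with control IgG (SD, n = 2 each), without overlap. The difference of 0.40 (95% interval −0.03 to 0.83) did not pass (limma adjusted p = 0.120), but was called with quantile (0.60) and median scaling (0.69). Hspa9, the mitochondrial HSP70 known as mortalin, which pulls imported proteins into the matrix, gave 6073 and 3036 units with CPEB3 IgG, against 4336 and 4136 units with control IgG. The CPEB3 IgG arrays lay on either side of the control IgG arrays, and the difference was 0.06 (95% interval −0.54 to 0.65, limma adjusted p = 0.865). It turned negative with quantile scaling (−0.061) and without CPEB3 IgG replicate 1 (−0.18).

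Hsf1, the master transcription factor of the heat shock response, gave 961 and 759 units with CPEB3 IgG, against 1337 and 1363 units with control IgG (chr15:76331320-76331379, plus strand). Both CPEB3 IgG arrays were lower. It was 1.54-fold lower (−0.62 ± 0.17, SE), at the edge of the threshold (limma adjusted p = 0.0499). It was not called when any single array was left out (−0.71 to −0.53), when levels were not scaled (−0.66), with median scaling (−0.33) or when dim probes were kept, and the sign turned with spike-in scaling (0.030).

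**Figure D3:**
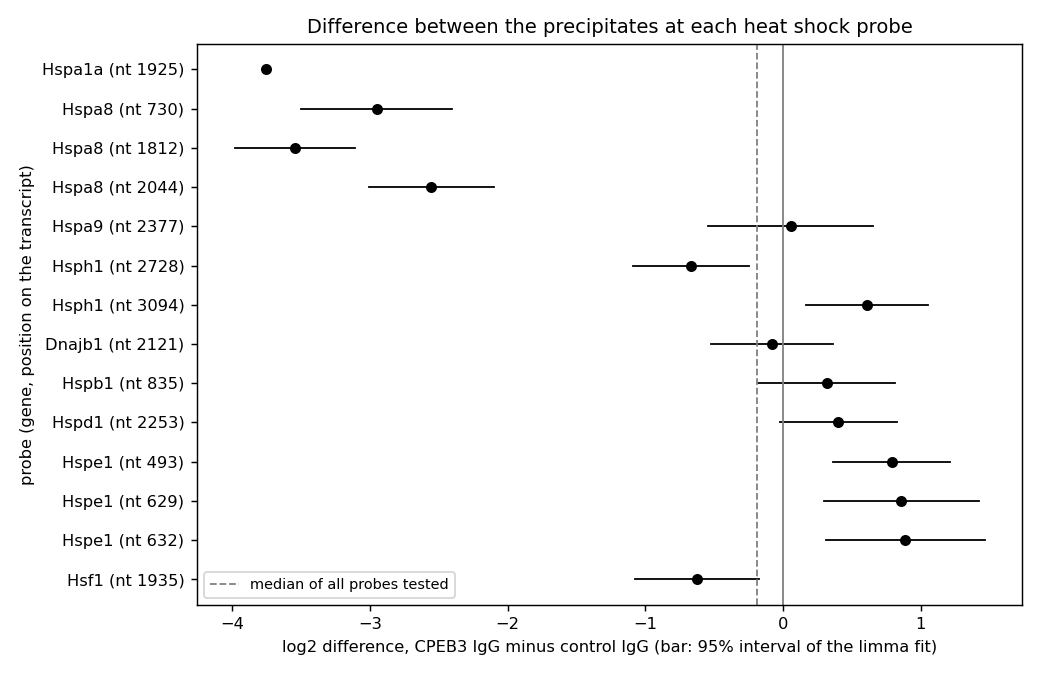
Log2 difference, CPEB3 IgG minus control IgG, at each of the 14 probes (points) with the 95% interval of the limma fit (bars, none for Hspa1a, by which the family was chosen), with the median of all probes tested (−0.19) as a dashed line. The intervals of Hspa8 lie below −2, those of the 3 Hspe1 probes above 0, and those of Hspa9, Dnajb1, Hspb1 and Hspd1 include 0.

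Between 68.1% and 73.5% of probes were well above background on an array, and 0 spots were saturated. Mean log2 signals of the E1A spike-in RNA were 13.11 and 13.43 with CPEB3 IgG, against 13.97 and 13.95 with control IgG. Scaling on it moved the median difference of all probes from −0.19 to 0.46, and median scaling moved it to 0.10. Lower probes made up 54.5% of all calls, 33.8% with median scaling and 14.9% with spike-in scaling. Relative to those medians, Hspa8 still lay far below and Hspe1 above. The groups sat at different positions of the same slide, so position and antibody cannot be told apart. Cpeb3 mRNA, that of the targeted protein, was 7.71-fold higher with CPEB3 IgG. All 9 neuronal markers (such as Snap25 and Slc17a7) were well above background on all arrays, as were all 18 markers of astrocytes, oligodendrocytes, microglia and endothelium. So were 2 of 3 listed markers of blood and 2 of 3 of liver, a tissue not sampled. Alb of the liver list was not among the probes kept, and Hbb-b1 of the blood list was not on the array under that symbol. The log2 of the summed neuronal marker levels was 8.33 and 8.38 with CPEB3 IgG, against 8.20 and 8.24 with control IgG. The same sum was 6.44 and 5.70 with CPEB3 IgG for astrocytes, against 5.54 and 5.19 with control IgG. For microglia it was 4.38 and 3.92 with CPEB3 IgG, against 4.80 and 4.61 with control IgG, and for blood 4.84 and 4.39 with CPEB3 IgG, against 5.82 and 5.38 with control IgG. Neuronal, astrocyte and liver sums were higher with CPEB3 IgG without overlap, microglial and blood sums lower, and those of oligodendrocytes and endothelium overlapped. Of all single probes tested, 28.6% were higher and 42.7% lower without overlap. The differences of single astrocyte markers ran from −3.03 to 3.16, so that sum does not stand for each marker. Single markers were called in 4 lists. Higher were 1 of 9 neuronal and 1 of 5 astrocyte markers. Lower were 1 of 5 astrocyte, 1 of 5 microglial and 1 of 2 blood markers. Of all genes at their brightest probe, 18.1% were called higher and 18.5% lower. The part of cell makeup in the heat shock values was not tested.

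**Figure D4:**
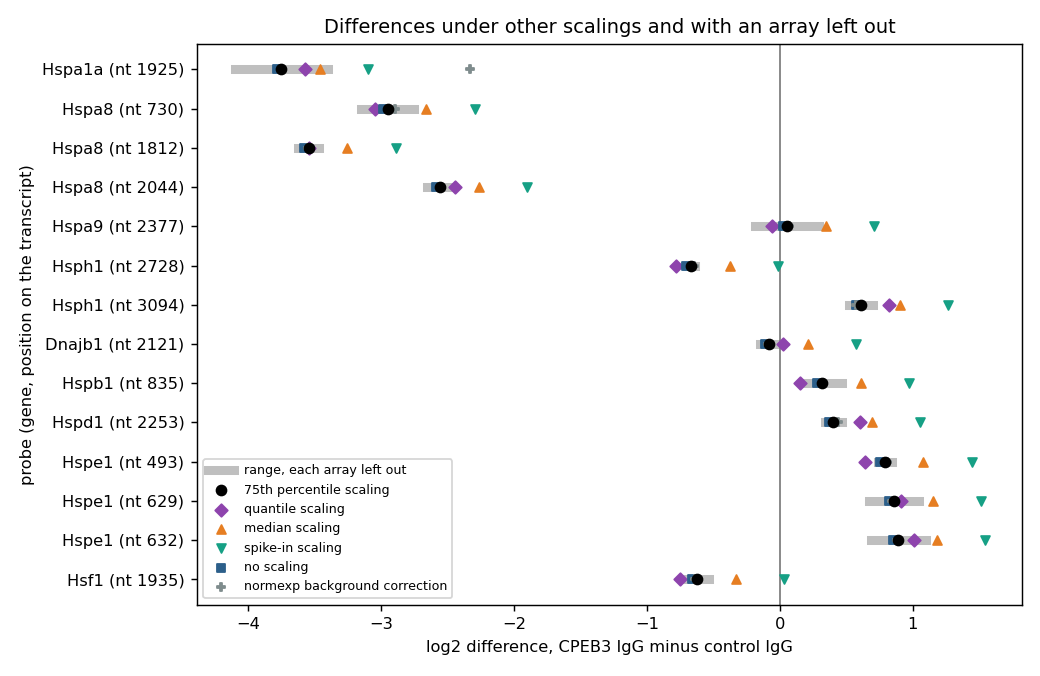
Log2 difference, CPEB3 IgG minus control IgG, of the 14 probes under 75th percentile scaling (black), other scalings, no scaling and normexp background correction (coloured), with the range over fits that leave out 1 array (grey bars). Spike-in scaling moves every probe to the right, Hspa8 to between −2.89 and −1.90 and Hspe1 to between 1.44 and 1.54.

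Other chaperone genes, partners and heat shock factors were read from 7 lists of 71 genes, each gene at its brightest probe. Of 70 tested, 35 were called lower, 5 higher and 30 not called, with a median difference of −0.71. Over all 27702 gene entries, 18.5% were lower and 18.1% higher, with a median of −0.14. At an unadjusted p under 0.05 (limma), 7420 of these 27702 were lower and 6228 higher, beside 41 and 9 of the 70. The lists were written with earlier results of these data known, so these counts are descriptions and not a test of the lists. The count of lower genes depended on the arrays: 15 and 14 without CPEB3 IgG replicates 1 and 2, and 14 and 22 without control IgG replicates 1 and 2, with 2, 2, 3 and 3 higher. It was 20 with median scaling, beside 8 higher, and 3 with spike-in scaling, beside 5 higher. Those 3 were Dnajc6 (−1.58), Dnaja1 (−1.54) and Trap1 (−1.46), so each other lower call named below at a brightest probe was lost with that scaling. Lower calls fell over all 40632 probes too, from 7691 to 4317 with median scaling and to 1096 with spike-in scaling. Higher calls there were 6423, 8444 and 6283.

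Among cytosolic J-domain proteins 7 were lower and 3 higher of 17 (median −0.55). Dnajc6, auxilin, which recruits Hspa8 to clathrin coats, was 4.71-fold lower (−2.23 ± 0.16, SE), and the HSP70 partner Dnaja1 was 4.59-fold lower (−2.20 ± 0.17). A second Dnaja1 probe 3′ of this one gave −0.60 and was not called. Dnajb5, another J-domain protein, went the other way at 6.31-fold higher (2.66 ± 0.24), and its second probe, also 3′, gave 0.30 without a call. Of 10 exchange factors, adaptors and inhibitors of HSP70, 4 were lower and 1 higher (median −0.16). The exchange factor Hspbp1 (−1.94 ± 0.20) and the ubiquitin ligase Stub1, or CHIP, which marks HSP70 clients for degradation (−1.91 ± 0.21), were lower. Bag2, known as an inhibitor of CHIP, was higher by 2.22 ± 0.17.

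HSP90 and its cochaperones had 6 lower and 0 higher of 10 tested (limma, 8 and 1 at an unadjusted p under 0.05, median −0.80). Cdc37, which brings kinases to HSP90, was lower by −2.11 ± 0.19, the inducible HSP90 gene Hsp90aa1 by −1.52 ± 0.19 and the cochaperone Chordc1 by −1.38 ± 0.17. Mitochondrial partners had 10 lower and 1 higher of 14 (median −0.92). The mitochondrial HSP90 Trap1 (−2.12 ± 0.16), the protease ATPase Clpx (−1.64 ± 0.20) and the disaggregase Clpb (−1.50 ± 0.15, with −1.45 at a second probe) were lower, whereas Hspe1 was higher. Hscb, a J-domain protein of iron-sulfur cluster assembly, was the higher gene of this list (0.84).

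Of 6 other HSP70 and HSP110 genes, 2 were lower and 0 higher (limma, 2 and 1 at an unadjusted p under 0.05, median −0.61). Hspa2, a relative most abundant in testis, was lower by −1.70 ± 0.27, and the HSP110 gene Hspa4 by −1.24 ± 0.20, with −1.71 and −1.16 at its other probes. The call of Hspa4 at its brightest probe was lost without CPEB3 IgG replicate 2 (−1.06) and without control IgG replicate 1 (−1.19). Of 8 other small heat shock proteins, 4 were lower and 0 higher (limma, 5 and 1 at an unadjusted p under 0.05, median −0.52). They were led by Hspb3 (−1.96 ± 0.21), Hspb2 (−0.95 ± 0.15) and Hspb11 (−0.79 ± 0.18), the last also known as IFT25, a protein of intraflagellar transport. Hspb2 and Hspb11 lost their calls when any single array was left out. Of 5 heat shock factors and regulators, 2 were lower and 0 higher (limma, 3 and 0 at an unadjusted p under 0.05, median −0.70). These were Hsbp1, a protein that binds HSF1 (−1.62 ± 0.19), and Hsf4 (−1.33 ± 0.31), whose call was lost when any single array was left out.

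**Figure D5:**
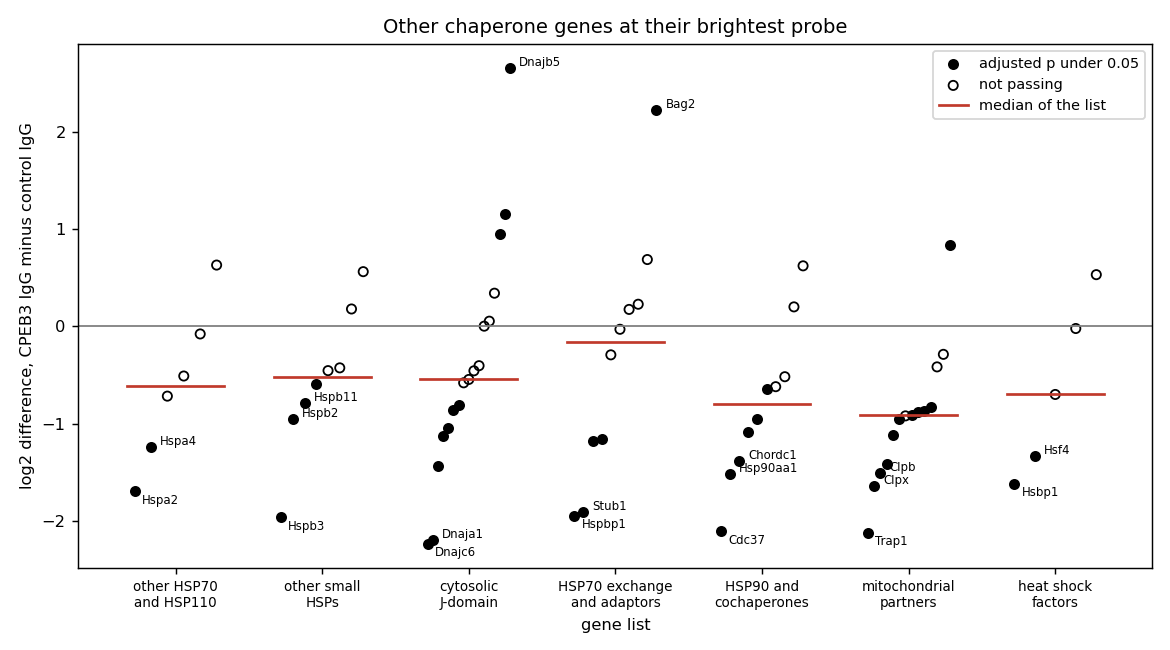
Log2 difference, CPEB3 IgG minus control IgG, of 70 other chaperone genes at their brightest probe, by list (filled points adjusted p under 0.05, open points not, red bars list medians). Filled points below 0 number 35 and those above 0 number 5, with Dnajb5 at 2.66 and Bag2 at 2.22 the highest.

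Letters of the probes were compared with all probes tested. Uridine (T in the probe) made up 15.0% to 40.0% of the 14 probes, with a median of 30% against 28.3% for all. The lowest share was that of Hspa8 at 1812 and the highest that of Hsf1, both called lower. TTTTAT occurred on the sense strand of 2 of the 14 probes, the overlapping Hspe1 pair that was higher, and on the opposite strand of 3 (Hspa8 at 2044, Hspb1 and Hsf1). Of all probes, 3.71% held it on the sense strand and 5.37% on the opposite strand. TTTTAAT occurred in 0 of the 14 on either strand, against 0.90% and 1.34% of all probes. TTTTT lay on the sense strand of Hspb1 and Hsf1 and on the opposite strand of Hsph1 at 2728, and in all probes at 10.6% and 10.4%. AATAAA lay on the sense strand of 4 probes (Hspa8 at 2044, Hspb1 and the Hspe1 pair) and the opposite strand of 0, against 11.0% and 3.78% of all. The sense TTTTAT in the Hspe1 pair is followed at once by an AATAAA that overlaps it by no base. Letters outside the 60 bases of a probe were not searched, so these counts say nothing of the rest of each mRNA. Whether CPEB3 binds TTTTAT or any other of these motifs was not tested.

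Promoters of the member genes were searched for letters of the heat shock element, the site that HSF1 binds. GAANNTTC or TTCNNGAA (both palindromic, so both strands are covered) occurred in 15.1% of 32851 RefSeq promoter windows of 300 bases (250 before to 50 after the start, GRCm38.p6). Of 10 windows of member genes, some of which overlap, 7 held a match. Counted by gene, which is not the unit of that share, at least 1 window matched for 6 of the 7 member genes in the table. These were Hspa1a, Hspa1b, Hspb1, Hsph1, Hspd1 and Hspe1. Dnajb1 held none in these letters, and Hspa8, Hspa9 and Hsf1 have no entry. Hspa1a and Hspa1b had 1 match each, while Hspe1 and the matching Hspd1 window had 3 each. These last 2 windows run on opposite strands and share 285 of their 300 bases.

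The levels most like those of Hspa1a over the 4 arrays, each centred on its own mean, belonged to 5 probes of Gapdh, Gm6981 and Gm8709 among 20951 compared. Root mean square differences from Hspa1a were 0.21 to 0.25 on the log2 scale. Gapdh, a glycolytic enzyme, had 10270 and 8279 units with CPEB3 IgG, against 107900 and 122800 units with control IgG at the nearer of its 2 probes, and differences of −3.61 and −3.76. Some of these probes list transcripts of the others in the files, so their values are not independent. With 4 arrays in 2 groups, likeness mostly reflects a difference of similar size.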

How the data were processed

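RNA from CPEB3 IgG and control IgG precipitates (0.2 ug per sample, amplified and labelled with Cy3, per the labels) was measured on 4 arrays, grouped by sample title. Per the file headers, the deposited processed intensity was made with Agilent Feature Extraction 10.5.1.1: background-subtracted, detrended, and not scaled between arrays. Deposited mean and background intensities served only the normexp alternative (offset 50).

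Control spots (3671) and outlier spots (123 to 223 per array) were left out. The log2 intensity was averaged over spots of a probe and reduced by the 75th percentile of the array. Probes well above background on at least 2 arrays and valued on all were kept (40632). limma 3.58.1 (R 4.3.3) was fitted without a block and adjusted by Benjamini-Hochberg over all probes, with 0.05 as threshold, and tested on simulated data. Symbols were updated through RefSeq (27509 probes matched). Members and lists were chosen with earlier results of these data known. Named are all member probes, up to 3 passing genes per list with the largest differences, and the 5 probes most like Hspa1a. Hscb was added after its value was seen. Replicates shared 0 identical signals.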

Additional observations from a re-analysis of the deposited data

How the results depend on the processing

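Hspa8 kept its 3 lower calls in every setting that fitted its probes, whereas the calls of Hspe1, Hsph1 and Hsf1 rest on all 4 arrays. Among the 13 member probes, lower and higher counts of 5 and 3 became 5 and 5 with quantile scaling, 3 and 5 with median scaling, 3 and 2 with spike-in scaling, and 3 and 0 without scaling, without the filter on dim probes, at adjusted p under 0.01 and at 2-fold (limma, 0 higher at an unadjusted p under 0.05 without scaling, 4 in the others). When the fit used only 1 probe per gene, 5602 of all 27702 gene entries were called lower and 5309 higher. Member counts in that fit were 2 lower (Hspa8 and Hsf1) and 2 higher (Hsph1 and Hspe1) of 8 genes. With each array left out they were 3 to 3 lower and 0 to 0 higher. Among the 70 other chaperone genes, 35 and 5 became 20 and 8 with median, 3 and 5 with spike-in and 19 and 2 with no scaling, 22 lower without the filter, 13 and 2 at 0.01, 23 and 3 at 2-fold, and 9 higher with normexp or an intensity trend, and 14 to 22 lower and 2 to 3 higher with each array left out. Over all probes, 7691 lower and 6423 higher became 4317 lower with median and 1096 lower with spike-in scaling, 3938 higher without scaling, 4702 lower without the filter, 2015 and 2735 at 0.01, and 2077 to 5368 lower and 2348 to 4683 higher with each array left out. The cause was not tested. Signs turned for Dnajb1 (0.026, 0.21 and 0.57 with quantile, median and spike-in scaling), Hspa9 (−0.061 with quantile scaling, and −0.18 to 0.30 with each array left out, the lowest without CPEB3 IgG replicate 1) and Hsf1 (0.030 with spike-in scaling). Same-numbered arrays correlated at 0.36 in their deviations from group means, which with 2 pairs does not show pairing. With replicate number as a block, member counts were 4 lower and 3 higher, as Hsf1 missed the threshold. Hspa1a, with 30.1 and 34.3 units with CPEB3 IgG, had the lowest member signals, and its difference was −2.33 with normexp.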
